A study of Mus musculus with 2 samples.

Results

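The Mir99/Mir100 and Mir125 genes are 6 mouse microRNA genes, found among 2202 annotated microRNA genes by their GENCODE M21 symbols: Mir99a, Mir99b, Mir100, Mir125a, Mir125b-1 and Mir125b-2. They lie in 3 paralogous clusters, and in each of these a Mir99/Mir100 gene and a Mir125 gene flank a let-7 gene. All 6 members had reads in both libraries. The libraries were prepared from total RNA of the gastrocnemius, a large calf muscle, of 14-day-old female B6CASTF1/J mice, a cross of C57BL/6J with CAST/EiJ, with a selection for RNA under 30 nt. There was 1 group of 2 biological replicates, with no treatment, second tissue or second age, so levels were described and no conditions were compared. The labels of replicate 2 name a single female and those of replicate 1 name 3, and both carry the same donor identifier. Whether RNA was pooled is not given in the sources used here, so the spread between replicates may be technical in part.

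MicroRNAs guide the silencing machinery to messenger RNAs mainly through the seed, bases 2 to 8 of the mature strand. The miR-99/100 family is known for repressing the growth kinase gene Mtor and the receptor gene Igf1r. The miR-125 family is the vertebrate counterpart of worm lin-4 and represses Lin28a, whose protein blocks let-7 maturation. In cultured mouse myoblasts miR-125b restrains differentiation and targets Igf2. The neighbourhood of miR-100, let-7 and miR-125 is ancient, and in flies they are cut from a single shared transcript.

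The 5p strands are shown first because their likeness decides which reads can be told apart. All 12 annotated mature strands of the 6 members were found in RefSeq (GRCm38.p6, the assembly also called mm10), each inside its GENCODE hairpin. Capitals mark the seed, and each sequence runs 5′ to 3′.
miR-99a-5p: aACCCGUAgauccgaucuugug
miR-100-5p: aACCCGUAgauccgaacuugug
miR-99b-5p: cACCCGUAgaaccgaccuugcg
miR-125b-5p, from both Mir125b-1 and Mir125b-2: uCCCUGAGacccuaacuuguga
miR-125a-5p: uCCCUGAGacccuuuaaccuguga

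The members fall into 2 seed groups of 3 genes each. Mir99a, Mir100 and Mir99b share the seed ACCCGUA, and no other gene of the RefSeq mature table has it. Counted from 1 at the 5′ end, miR-99a-5p and miR-100-5p differ by the single substitution U16A, so their first 15 bases are identical. From miR-99a-5p, miR-99b-5p differs by A1C, U11A, U16C and U21C. The Mir125 genes share the seed CCCUGAG, and miR-125a-5p is 3 edits away from miR-125b-5p, with the first 13 bases in common. Mir125b-1 and Mir125b-2 encode the same 5p strand over all 22 bases. A read lying wholly within it matches both loci. They are the 2 members with a mature strand identical to that of another gene, a state shared by 97 of 1058 genes in the table (9.17%).

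The 3p strands of the Mir125 genes are shown because they separate the Mir125b copies.
miR-125b-1-3p: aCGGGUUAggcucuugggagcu
miR-125b-2-3p: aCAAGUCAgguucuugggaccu
miR-125a-3p: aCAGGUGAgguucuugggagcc

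Between the Mir125b copies the 3p strands differ by G3A, G4A, U7C, C11U and G20C, so 3p reads can be told apart by sequence. Their seeds differ from each other and from that of miR-125a-3p. The 3p strands of Mir99a and Mir99b share the seed AAGCUCG, while that of Mir100 has CAAGCUU.

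**Figure D1:**
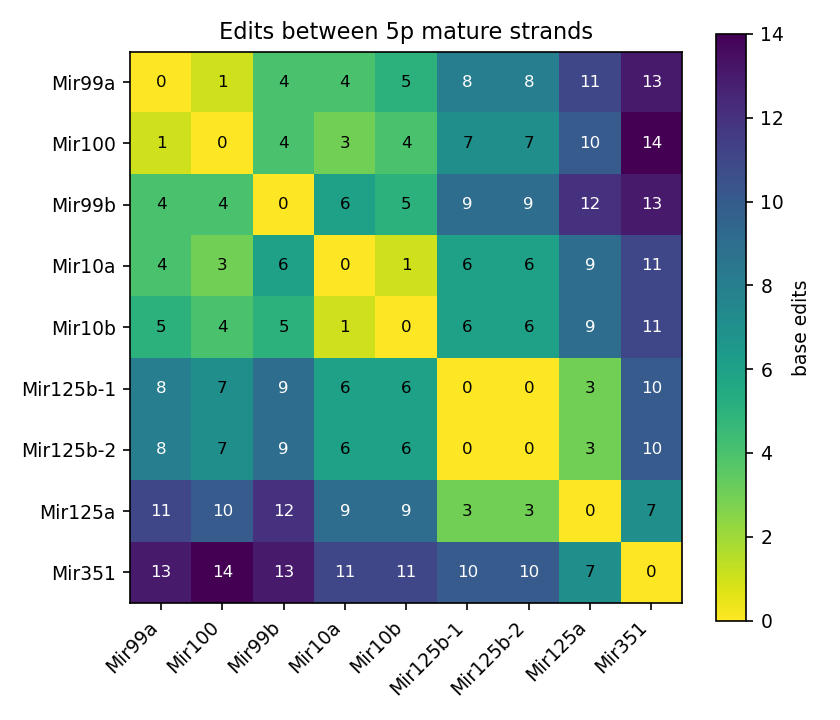
Number of base edits (substitutions, insertions and deletions) between the 5p mature strands of the 6 members and 3 relatives; rows and columns are genes. The Mir125b copies are 0 edits apart, Mir99a and Mir100 1 edit apart, and every Mir99/Mir100 strand is at least 7 edits from every Mir125 strand.

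Beyond the members, the seed CCCUGAG occurs in Mir351, Mir6367 and Mir6394. Mir351, a mouse gene of the X-linked Mir322-Mir503 cluster, reads as follows.
miR-351-5p: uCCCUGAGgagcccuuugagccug

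In replicate 2 Mir351 reached 4346 CPM and in replicate 1 it reached 2888 CPM, close to the level of Mir125a, and its 5p strand is 7 edits from miR-125a-5p. CPM are reads per 1000000 reads assigned to microRNA genes in that library. Counts of Mir351 and the 3 Mir125 genes summed to 0.791% ± 0.109 of assigned reads (SD, n = 2). That is a share of genes and not of the CCCUGAG seed itself. The counts pool both arms, whose 3p strands have other seeds, and leave out reads that match both Mir125b loci. Mir6367 and Mir6394 had 0 reads, which allows up to 0.699 CPM in replicate 2 and 1.12 CPM in replicate 1. The Hox cluster genes Mir10a and Mir10b, whose 5p strands are 3 to 6 edits from the Mir99/Mir100 strands, had 2554 ± 174 and 7959 ± 443 CPM (SD, n = 2).

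The counts assigned to microRNA genes totalled 4292012 in replicate 2 and 2672454 in replicate 1, out of 12134412 and 8002643 reads. Reads aligned to several places made up 52.4% and 52.7% and count for no gene. The skeletal muscle marker Mir206 stood at 84695 and 95105 CPM. Every one of the 9 muscle markers had reads in both replicates, though as few as 9 and 2 for Mir133a-2. Any read that aligns to both Mir133a-1 and Mir133a-2 is missing from these counts. The RNA came from whole tissue, in which fewer cells of a type and less RNA per cell cannot be told apart.

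Together the 6 genes held 3.4% of assigned reads in replicate 2 (95% binomial interval 3.38 to 3.42, Clopper-Pearson) and 2.44% in replicate 1 (2.42 to 2.45). Most of it was the Mir99/Mir100 group, with 2.97% and 2.01%, while the Mir125 group held 0.433% and 0.425%. For each Mir125 read there were 6.85 Mir99/Mir100 reads in replicate 2 and 4.73 in replicate 1. These ratios are upper limits as far as reads of the shared miR-125b-5p strand went uncounted. All 6 members reached 1 CPM in both replicates, as did 16.7% of all 2202 genes. Every member also exceeded the median of 81.5 CPM over the 367 genes that reached that level. Intervals cover counting error only. No molecular identifiers are named, so copies of the same molecule may count as separate reads.

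Among the Mir99/Mir100 genes, Mir99a reached 17758 CPM in replicate 2, against 10499 CPM in replicate 1, from 76219 and 28057 reads. With a mean of 14128 ± 5133 CPM (SD, n = 2) it ranked 15th of all microRNA genes, between Mirlet7b (15968 CPM) and Mir487b (13449 CPM). This place, and those of the other members given here, refer to the means and not to each library, since Mir99a lay above Mirlet7b in replicate 2 and below Mir487b in replicate 1. It alone gave 52.2% of the members' reads in replicate 2 and 43.1% in replicate 1. Mir99b stood at 6088 CPM in replicate 2, against 5362 CPM in replicate 1, a mean of 5725 ± 513 CPM at rank 31, between Mir744 and Mir191. Mir100 had 5823 and 4239 CPM, a mean of 5031 ± 1120 CPM at rank 34, between Mir196b and Mir337, but above Mir196b in replicate 2 and below Mir337 in replicate 1. Mir99b was above Mir100 in each library, with counting intervals that did not overlap, by 1.14-fold in the means. The ranges of the 2 genes over the replicates did overlap. The lowest Mir99a value lay above the highest of either, and the lowest Mir100 value lay above the highest of Mir125a.

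Among the Mir125 genes, Mir125a stood at 3878 CPM in replicate 2, against 3818 CPM in replicate 1, a mean of 3848 ± 42.5 CPM (SD, n = 2) at rank 40, between Mir483 and Mir151. Mir125b-1 reached 351 CPM in replicate 2, against 331 CPM in replicate 1, from 1506 and 884 reads, a mean of 341 ± 14.2 CPM at rank 118, between Mir106b and Mir494. Mir125b-2 had 103 and 104 CPM, from 443 and 277 reads, at rank 174 between Mir5099 and Mir3102. Mir125a was thus 11.3-fold above Mir125b-1, which was 3.3-fold above Mir125b-2, with no overlap between neighbours. The Mir125b copies summed to 444 ± 13.9 CPM, so there were 8.54 Mir125a reads per Mir125b read in replicate 2 and 8.79 in replicate 1. The Mir125b read counts are lower bounds, because a read within the shared 5p strand aligns to both loci and such reads enter no gene's count, and each gene's count pools both arms. Mature strands of the members are 21 to 24 nt long, and levels were not divided by length.

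**Figure D2:**
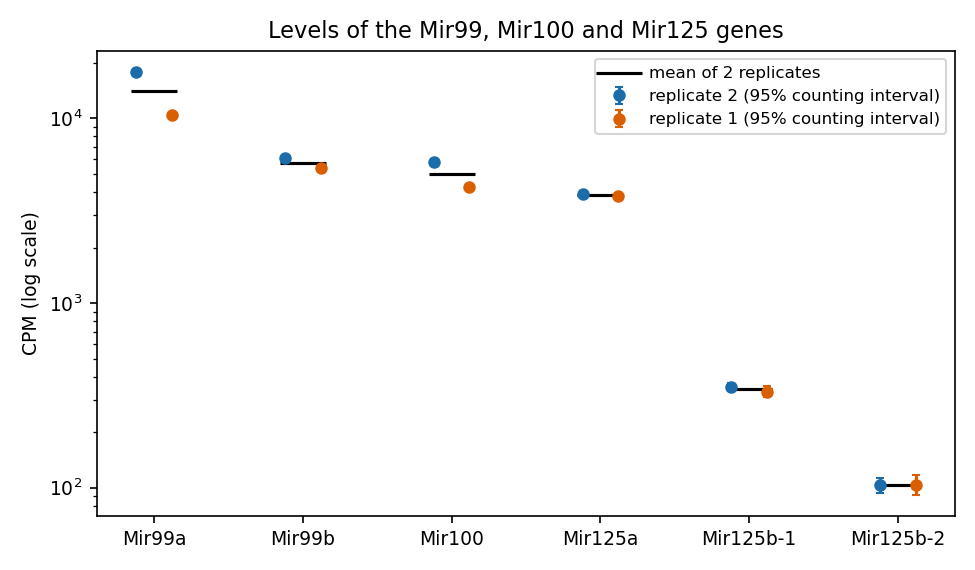
Level of each member in CPM on a log scale; points are the replicates with 95% counting intervals and the black line is their mean. Mir99a is highest at 17758 and 10499 CPM, Mir99b, Mir100 and Mir125a lie between 3818 and 6088 CPM, and the Mir125b copies lie at 351 CPM or less.

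Each cluster was then followed along the chromosome, since its genes share a host transcript or lie close together. Mir99a (ENSMUSG00000065530.1, chromosome 16, 77598936 to 77599000), Mirlet7c-1 and Mir125b-2 (ENSMUSG00000065472.1, 77646273 to 77646343) span 47.4 kb on the plus strand. All 3 lie in introns of the long noncoding gene Mir99ahg, and the Mir125b-2 hairpin also meets an exon of C130023A14Rik on the same strand. Mir99a and Mirlet7c-1 also lie in an intron of Gm11146 on the opposite strand. Mir99a was 172-fold above Mir125b-2 in replicate 2 (95% counting interval 157 to 189) and 101-fold above it in replicate 1 (90 to 114). Mirlet7c-1, whose 5p strand also occurs in Mirlet7c-2, had 188 and 211 CPM, which left Mir99a 94.4-fold and 49.8-fold above it. The hairpins of Mir99a and Mirlet7c-1 start only 721 nt apart. The Mirlet7c-1 and Mir125b-2 counts leave out reads that match several loci. The folds of Mir99a over them are upper limits as far as such reads went uncounted.

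Mir100 (ENSMUSG00000093011.1, chromosome 9, 41531425 to 41531504), Mirlet7a-2 and Mir125b-1 (ENSMUSG00000093354.1, 41581926 to 41582002) span 50.6 kb in introns of the noncoding genes 3110039I08Rik and Gm49317. Mir125b-1 also lies in an exon of Gm28119 on its own strand, and Mir100 overlaps an exon of Gm48742 on the other strand. Mir100 was 16.6-fold above Mir125b-1 in replicate 2 (15.8 to 17.5) and 12.8-fold above it in replicate 1 (12 to 13.7). Mirlet7a-2 had 109 and 133 CPM, so Mir100 stood 53.3-fold and 31.9-fold above it. Mature let-7a is known to be made from several mouse genes, so the Mirlet7a-2 count may likewise miss reads that match more than its own locus.

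The third cluster is compact, 692 nt in all. Mir99b (ENSMUSG00000065396.1, chromosome 17, 17830188 to 17830257) lies in an intron of Spaca6, a gene needed for the fusion of sperm and egg. The Mirlet7e hairpin starts 164 nt downstream of the Mir99b start, and Mir125a (ENSMUSG00000065479.2, 17830812 to 17830879) overlaps an annotated Spaca6 exon. None of these genes has a mature strand identical to that of another gene in the table. Here the levels were close, with Mir99b 1.57-fold above Mir125a in replicate 2 (1.54 to 1.6) and 1.4-fold above it in replicate 1 (1.37 to 1.44). Mirlet7e had 3083 and 3469 CPM, or 0.795 and 0.909 reads per Mir125a read.

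The 3 clusters differed most in their Mir125 and let-7 genes. As a mean log2 ratio, the Mir99/Mir100 gene exceeded the Mir125 gene by 7.04 ± 0.54 on chromosome 16, 3.87 ± 0.26 on chromosome 9 and 0.57 ± 0.11 on chromosome 17 (SD, n = 2). Library size cancels from these ratios, and the gaps between clusters exceeded the spread between replicates. The low members of the wide clusters, Mir125b-1 and Mir125b-2, share a 5p strand with each other, and their low let-7 neighbours belong to let-7 strands that are also made elsewhere. How much of the gap comes from shared reads was not tested, because the counts do not place reads that match several loci. In sum over its 3 genes the chromosome 16 cluster held 1.8% and 1.08% of assigned reads in replicates 2 and 1, the chromosome 17 cluster 1.3% and 1.26%, and the chromosome 9 cluster 0.628% and 0.47%.

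**Figure D3:**
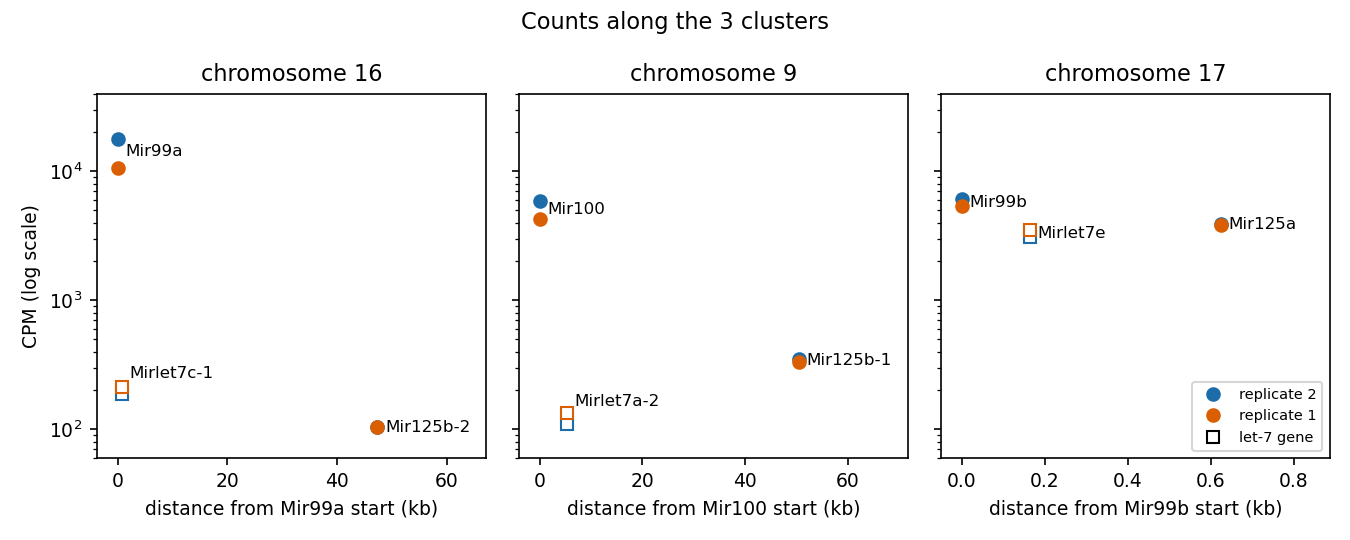
CPM on a log scale against distance in kb from the start of the first gene, for each cluster; circles are members, open squares the let-7 genes, colours the replicates. On chromosomes 16 and 9 the Mir99/Mir100 gene stands far above the other genes, which lie between 103 and 351 CPM, whereas all 3 genes on chromosome 17 lie between 3083 and 6088 CPM. Where a single point is seen the replicates coincide.

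The replicates were compared next, as a ratio of CPM of replicate 2 over replicate 1. With 1 library on each side such a ratio compares libraries, not animals, and no p-value was computed. Mir99a was 1.69-fold higher in replicate 2 (95% counting interval 1.67 to 1.71), Mir100 1.37-fold (1.34 to 1.4) and Mir99b 1.14-fold (1.11 to 1.16). The Mir125 genes were close to equal, at 1.06-fold for Mir125b-1 (0.976 to 1.15), 1.02-fold for Mir125a (0.991 to 1.04) and 0.996-fold for Mir125b-2 (0.855 to 1.16). As groups, the Mir99/Mir100 genes stood at 1.48 (1.46 to 1.49) and the Mir125 genes at 1.02 (0.995 to 1.04).

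Set against all 176 genes at a mean of 100 CPM or more, which include every member, 1 of 6 members was more than 1.5-fold higher in replicate 2 and 0 in replicate 1. The same shares over all 176 genes were 5.11% and 2.84%. For 3 members the counting interval lay above 1 and for 0 it lay below 1, while it did so for 39.2% and 34.7% of all 176 genes, so counting intervals that exclude 1 are common in these libraries. Mir99a had the 5th highest ratio of the 176 and Mir100 the 13th, whereas Mir125a and Mir125b-2 stood at places 87 and 92. The median log2 ratio was 0.13 over the 6 members and 0.01 over all 176 genes, whose middle 50% ran from -0.16 to 0.18. The edgeR common dispersion gave a coefficient of variation between these libraries of 19.6%, from the 255 genes that reached 10 CPM in both.

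The ratios were also set side by side within each cluster, as a description of these libraries, since the intervals carry counting error alone. On chromosome 16, Mir99a stood at 1.69, Mir125b-2 at 0.996 and Mirlet7c-1 at 0.893 (0.8 to 0.996). On chromosome 9, Mir100 stood at 1.37, Mir125b-1 at 1.06 and Mirlet7a-2 at 0.823 (0.715 to 0.947). On chromosome 17 the values were 1.14 for Mir99b, 1.02 for Mir125a and 0.889 for Mirlet7e (0.865 to 0.913). In all 3 clusters the Mir99/Mir100 gene had the highest ratio, the Mir125 gene came next and the let-7 gene was lowest. On chromosomes 16 and 9 the Mir125b ratios leave out reads that match both Mir125b loci, and the let-7 ratios may likewise lack reads. A low let-7 ratio was not particular to the clusters. Of all 12 let-7 genes, including these 3, 11 were lower in replicate 2, with a median log2 ratio of -0.16. The counting intervals of Mir125b-2 and Mirlet7c-1 overlapped. On chromosome 17 the log2 ratios ran from -0.17 for Mirlet7e to 0.18 for Mir99b, about the range of the middle 50% of all 176 genes, so that order lies within the usual spread between these libraries. The excess of Mir99a over Mir125b-2 was itself 1.7 times larger in replicate 2, that of Mir100 over Mir125b-1 1.3 times and that of Mir99b over Mir125a 1.12 times.

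**Figure D4:**
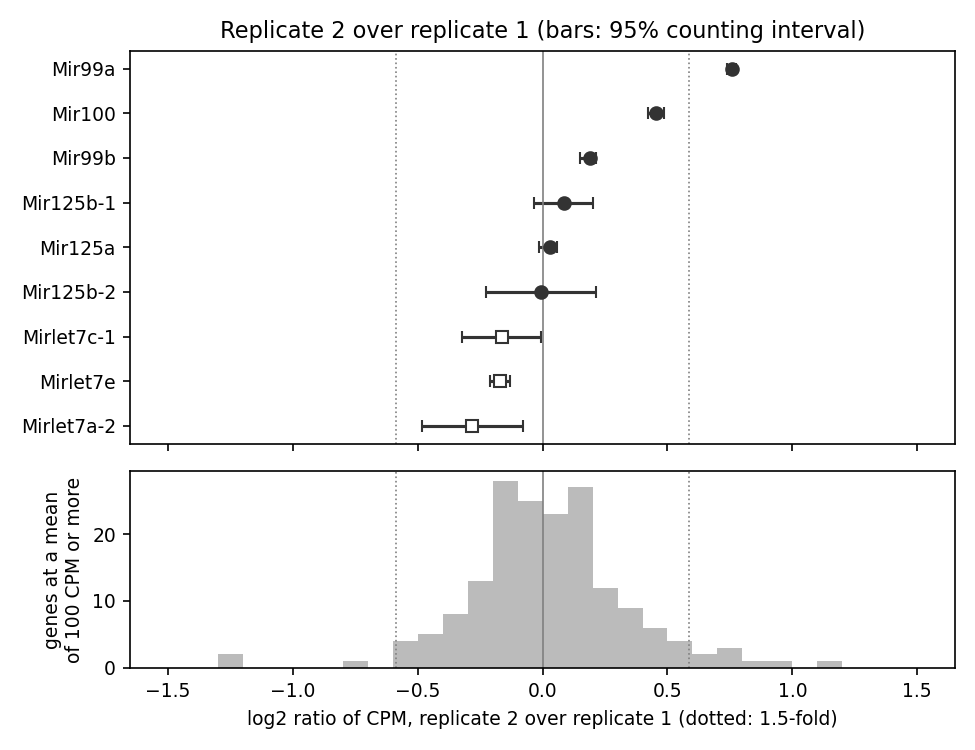
Top, log2 ratio of replicate 2 over replicate 1 with 95% counting intervals for the 6 members (filled) and their let-7 neighbours (open); bottom, number of genes at a mean of 100 CPM or more by the same ratio, with dotted lines at 1.5-fold. Mir99a at 0.76 lies past the line, Mir100 at 0.46 inside it, and 1 gene, Mir122 at -4.01, lies beyond the left edge and is not drawn.

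The 3 genes nearest to Mir99a in log2 ratio, over these 2 libraries and among the 176 genes, were Mir338 at 1.64, Mir667 at 1.63 and Mir208b at 1.83. Mir338, a neural gene of the Aatk locus, stood at 632 CPM in replicate 2, against 385 CPM in replicate 1. Mir208b, in the slow myosin gene Myh7, had 149 and 81.6 CPM. Mir351, which shares the Mir125 seed, stood at 1.5 (1.47 to 1.55), unlike the Mir125 genes, and Mir10a and Mir10b stood at 1.1 and 1.08.

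Some marker lists of other cells differed in sum between the replicates too, while others were nearly equal. The part of any list in the Mir99a and Mir100 ratios was not tested. Of 12 neural markers 6 had reads in both replicates, and 4 of these were higher in replicate 2. The list summed to 2492 CPM in replicate 2 and 2389 in replicate 1, most of it Mir128-1 and Mir128-2, with the 3 Mir124a genes, Mir9-1 and Mir9-2 at 0. Reads that align to several places count for no gene. A low or 0 count of a gene with numbered copies, in this or another list, therefore need not mean absence. The 4 higher genes were Mir137 at 2.84-fold, Mir138-2 at 1.86-fold, Mir138-1 at 1.78-fold and Mir338 at 1.64-fold, against 1.69-fold for Mir99a. Of these, all but Mir338 stayed below 100 CPM in both replicates. The 2 lower genes were Mir128-1 at 0.895-fold and Mir128-2 at 0.809-fold. Leukocyte markers summed to 1347 and 1855 CPM over 6 genes, with Mir142b at 0 and 4 of the 5 others lower in replicate 2. The erythroid pair Mir451a and Mir144 summed to 185 and 437 CPM, and the hepatocyte gene Mir122 had 14.2 and 229 CPM. The 7 fibroblast and smooth muscle markers summed to 29676 and 29088 CPM, with Mir199a-1 at 0, and the endothelial pair to 119268 and 118725 CPM. The 9 skeletal muscle markers summed to 85876 and 96325 CPM, nearly all of it Mir206. The Mir1a and Mir133a genes are numbered copies, so these sums leave out any reads that match several of them. Of the 9, 5 were higher in replicate 2, among them Mir208b at 1.83-fold and Mir499 at 1.31-fold. Also among these 5 were Mir133a-2, from only 9 and 2 reads, and Mir1a-1, from 37 and 21. The other 4 were lower, among them Mir1a-2 at 0.693-fold and Mir206 at 0.891-fold.

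No read of either library fell on the strand opposite any of the 6 members, so the count without regard to strand was the same for each. Their let-7 neighbour Mirlet7e differed in this respect. The annotated gene Gm25927 lies opposite its hairpin, and the deposited column without regard to strand gave Mirlet7e 0 reads in both libraries, against 13232 in replicate 2 and 9272 in replicate 1 on its own strand.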

How the data were processed

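Small RNA libraries of 2 replicates were analysed from raw read counts per microRNA gene, as deposited by the authors on assembly mm10 with GENCODE M21, per the accompanying text. No aligner or counting tool is named in the labels or headers read here. Of the 3 unlabelled count columns, the second was taken, from its order and the summary lines, as reads on the gene's strand, and was used. The 4 summary lines, 64.6% of reads in replicate 2 and 66.6% in replicate 1, stayed out of totals. All 2202 gene identifiers matched GENCODE M21. Counts were divided by the total over gene rows to give CPM, so 1 read was worth 0.233 and 0.374 CPM. Shares have exact 95% binomial intervals, and replicate ratios have exact conditional binomial intervals. A count of 0 was given a limit of 3 reads. With 1 group no test between groups was made. The spread used edgeR 4.0.16 in R 4.3.3, and the script was tested on simulated data. DESeq2 1.42.0 size factors were an alternative. Python 3.11.15, numpy 2.4.6, pandas 2.3.3, scipy 1.17.1 and matplotlib 3.10.9 were used. Mature sequences came from RefSeq (GRCm38.p6), and matches elsewhere in the genome were not searched. Likeness was counted as base edits or as the nearest log2 ratio over 2 libraries. Named were the members, their let-7 neighbours, genes with the same seed, Mir10a and Mir10b, genes adjacent in rank, the 3 nearest in ratio to Mir99a, and marker genes. The members and lists were chosen with earlier results of these data known. Mir6367, Mir6394 and Gm25927 were singled out by sequence or position, and marker genes by name after their values were seen.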

Additional observations from a re-analysis of the deposited data

How the results depend on the processing

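No paired analysis was possible because there was 1 group only. Of 114 recomputed values, 84 stayed within a limit, 30 moved further and 0 reversed. The limit was the replicate SD for levels, shares and cluster ratios, the counting interval for replicate ratios, and equality or 1.5-fold for the rest. With 2 replicates, a level, share or cluster ratio from 1 of them always lies within that SD, so those values test nothing. Reversal could be called only for replicate ratios whose counting interval excluded 1. The order of the 6 levels was the same in each replicate alone, per nt of hairpin and with the Mir125b copies summed. That sum still lacks reads that match both Mir125b loci. Without regard to strand the order could not change, since the members' counts were the same. The share of the 6 members moved to 3.92% with the column without regard to strand, whose total is smaller, to 1.01% over all reads and to 7.53% without the 10 most abundant genes in the total. In the same order the Mir99/Mir100 share was 3.34%, 0.86% and 6.42%, and the Mir125 share 0.577%, 0.148% and 1.11%. The replicate ratio of Mir99a ranged from 1.65 without regard to strand to 1.79 over all reads, past 1.5-fold in each, and no other member passed that fold. TMM and DESeq2 size factors shifted log2 ratios by -0.03 and -0.02. With those scalings Mir125a stood at 0.995 and 1, and over all reads Mir125b-2 stood at 1.05, each within its counting interval, while Mir125a over all reads stood at 1.08, above its own. No direction between the replicates is therefore given for these genes. The share of all genes past 1.5-fold in replicate 2 was 8.46% at a mean of 10 CPM, against 5.11% at 100 CPM. The coefficient of variation between libraries came to 14.4% with a minimum of 100 CPM, an alternative chosen after seeing the data. Low counts limit Mir125b-2, whose ratio interval spans 0.855 to 1.16.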
